A study of Drosophila melanogaster with 42 samples.

Results

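The mitochondrial ribosomal protein genes of Drosophila melanogaster were taken as every gene of the count table whose symbol starts with mRpL or mRpS. The rule gave 73 genes of 17208, of which 47 carry an mRpL and 26 an mRpS symbol. Their RNA was measured by sequencing of total RNA from imaginal wing discs of third-instar larvae, the epithelial sacs that form the adult wing and dorsal thorax. The mutants carry changes in fat (ft), which encodes a giant cadherin upstream of Hippo signalling and planar cell polarity. Groups on the NovaSeq X Plus were Fd5-5 (n = 2), delta HpoC (n = 5), delta HpoN+PH (n = 4), delta PCP (n = 5), delta D (n = 3) and WT X Plus (n = 2). On the NovaSeq 6000 there were 4 libraries each of delta A, delta B and delta E, and 3 each of delta C, delta F and WT 6000. The functional domain deletions are called HpoC, HpoN+PH and PCP below, delta A to delta F are deletions of conserved regions of the Fat intracellular domain, and both WT sets carry w1118.csvd111 in their library names. The labels give no sex, zygosity, driver or number of discs pooled, and no wording for Fd5-5 beyond its name. Nothing in them says that the libraries of a group came from separate cultures or crosses, so p-values measure only the spread between these libraries. Each mutant was set against the WT of its own sequencer, since WT alone was on both instruments.

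Mitochondria translate a small set of respiratory chain subunits encoded in their own genome, on ribosomes of their own. The 2 ribosomal RNAs of these ribosomes come from the mitochondrial genome, whereas their proteins are encoded in the nucleus, made in the cytoplasm and imported. Proteins of the large subunit (mRpL) line the peptidyl transferase centre, the exit tunnel and the stalk that recruits translation factors. Proteins of the small subunit (mRpS) hold the mRNA channel and the decoding site. Some are homologues of bacterial ribosomal proteins, and others are found in mitochondria only. In growing tissues these genes are commonly expressed everywhere at moderate levels, and loss of single ones slows growth in flies.

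The libraries held 19538208 to 48392354 counts. They fell into 2 classes by the share of counts on the 46 symbols that contain rRNA, with 21 libraries at 5.11% or more and 21 at 1.68% or less. A boundary at 3% was drawn from the data and not from the labels. Every library of delta F, delta C, delta A and WT X Plus was above it, and every library of delta D, Fd5-5 and WT 6000 below it. PCP, delta B, HpoN+PH, delta E and HpoC held libraries of both classes. By mean Spearman rho over the genes tested, 17 of 42 libraries were more like those of a different group on the same instrument than like their own group. All of them were in groups that hold both classes, where the mean over the own group takes in libraries of the other class. Whether labels were exchanged was not tested, and every value is given for the library as labelled. The 17 include the 8 that were left out together in an alternative fit, namely PCP 1, 2 and 5, HpoN+PH 1, HpoC 1 and 2, delta E 4 and delta B 4. Without those 8 no group holds both classes. Of the mutants only HpoC and delta E then lie in the class of the WT of their sequencer. The targeted gene ft was read at 220 to 767 CPM (counts relative to each library total, after TMM scaling), and its level does not check the labels, since the deleted stretches cannot be seen in a gene count. The 6 wing disc markers (vg, nub, rn, sd, ap, Dll) were present in every library, with a summed level of 721 to 1389 CPM in libraries over 3% and 1990 to 2876 CPM in libraries under 3%.

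The 73 genes are spread over the chromosome arms 2L (12), 2R (12), 3L (17), 3R (21) and X (11). Their longest transcripts run from 327 to 2078 bases with a median of 783, against a median of 1870 over the genes tested. By symbol number, 42 match a bacterial ribosomal protein and 31 do not. Exons of 43 overlap another gene, 3 of them on the same strand, and in 10 the overlap covers more than 10% of the exonic bases. The way reads were counted by strand is not given in the sources used here, so reads of such pairs may be split. All 73 genes passed the filter on low counts in each fit, and the lowest count of any of them in any library was 66.

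Per kilobase of the longest transcript, the gene levels spanned 4.55-fold. The highest mean of the 12 groups was that of mRpL12 (FBgn0011787), which encodes the L7/L12 stalk protein that contacts translation factors, at 81.5 CPM per kb. The lowest was that of mRpS18B, 1 of 3 paralogues of bacterial S18, at 17.9 CPM per kb. The median was 34.0 CPM per kb and the middle 50% of genes lay between 28.9 and 46.2 CPM per kb. The other stalk genes ranked low on this per-length level: mRpL10, which anchors the stalk, at 19.9 CPM per kb and mRpL11, at its base, at 20.5 CPM per kb. In WT 6000 the per-length median was 21.4 CPM per kb and in WT X Plus 42.7 CPM per kb.

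Together the 73 genes took 0.251 to 0.449% of the counts left after removing rRNA symbols in the 21 libraries over 3% (median 0.346%). In the 21 libraries under 3% they took 0.135 to 0.244% (median 0.178%). These ranges do not overlap. The share of counts on the 2 mitochondrial rRNA genes ran from 0.554 to 1.59% in libraries over 3%. It ran from 0.0742 to 0.656% in libraries under 3%, and these ranges overlap. Both genes are among the 46 symbols that define the classes, so their share is part of the measure that split the libraries. Almost all of it was mt:lrRNA, with mt:srRNA at 0.0450 to 6.49 CPM. The ratio of mRpL to mRpS counts was 1.64 to 1.96 over 3% and 1.58 to 1.85 under 3%, which also overlap.

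**Figure D1:**
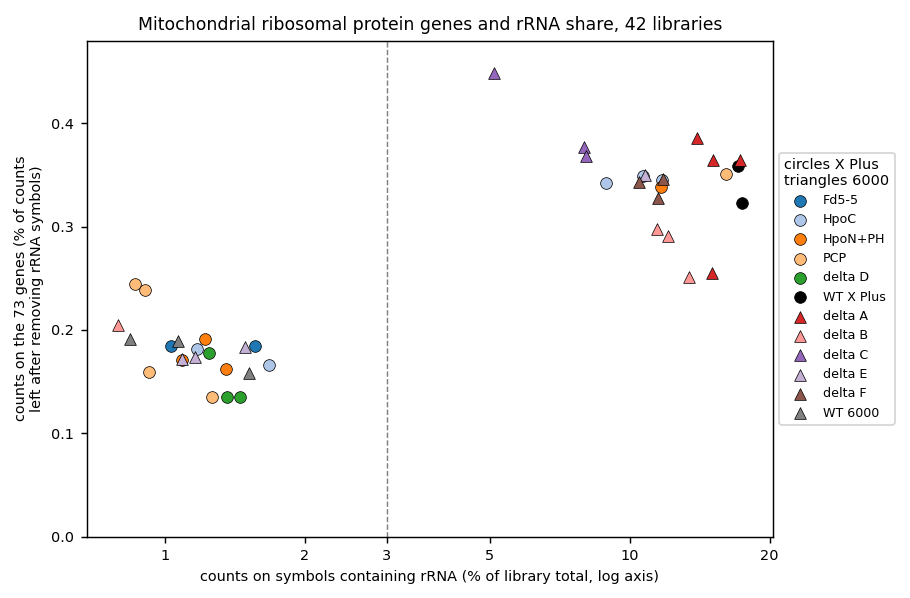
Each point is 1 of 42 libraries, with the share of counts on symbols containing rRNA on a log axis (percent of the library total) against the share on the 73 genes (percent of counts without rRNA symbols), coloured by group, circles for the X Plus and triangles for the 6000. The 21 libraries to the right of the dashed 3% line lie at 0.251% or more and the 21 to its left at 0.244% or less.

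The division ran through groups of 1 genotype label. In HpoC the share was 0.166 and 0.182% in libraries 1 and 2, which are under 3%, and 0.349, 0.345 and 0.342% in libraries 3 to 5, which are over it. In HpoN+PH the share was 0.338% in library 1, over 3%, and 0.192, 0.162 and 0.171% in libraries 2 to 4, under it. In PCP it was 0.351% in library 5, over 3%, and 0.159, 0.135, 0.244 and 0.239% in libraries 1 to 4. PCP 3 and 4 were the highest of the libraries under 3%, although their rRNA shares of 0.861 and 0.907% were among the lowest. In delta B the share was 0.291, 0.298 and 0.251% in libraries 1 to 3, over 3%, and 0.205% in library 4, under it. In delta E it was 0.350% in library 4, over 3%, and 0.172, 0.173 and 0.183% in libraries 1 to 3. Delta E 4 had a mean Spearman rho of 0.994 with delta F and 0.911 with its own group. Delta B 4 had 0.983 with WT 6000 and 0.919 with its own group. The rest of delta E lies under 3% and the rest of delta B over it.

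Between the classes within a group, the 73 genes were higher in libraries over 3% almost throughout. On the X Plus all 73 passed the test of the class term (edgeR's quasi-likelihood test with Benjamini-Hochberg adjustment over all genes), where 66.9% of the genes tested passed and 34.0% in that direction. Their median log2 difference was 1.18, against −0.01 over all genes, with a range of 0.32 to 2.43. On the 6000, where the term rests on delta B and delta E, 66 of 73 passed and none was lower, against 56.4% of all genes called and 28.9% higher, with a median of 0.89 against 0.05 over all genes and a range of −0.14 to 2.36. Without delta E 4, the 1 library over 3% in that group, the count on the 6000 was 40, with no share of all genes given for that fit. In 34 of the 73 every one of the 21 libraries over 3% was above every one of the 21 under it, which 10.4% of all genes did, and none showed the opposite. Across the 73 genes the class differences on the sequencers had a Spearman rho of 0.89, as a description. Marker sums also differed between the classes, in wing disc markers without overlap, as above. Larval muscle markers (Mlc2, Act57B, TpnC73F and Mhc, 4 of 4 detected) overlapped. They summed to 38.6 to 970 CPM over 3% (median 67.3) and 11.4 to 150 CPM under 3% (median 34.9). Fat body and hemocyte markers overlapped too, with lower medians over 3%. Fat body markers (5 of 5) summed to 1.59 to 11075 CPM over 3% (median 4.77) and 11.7 to 12604 CPM under 3% (median 196). Hemocyte markers (3 of 3) summed to 20.8 to 150 CPM (median 47.1) and 54.0 to 241 CPM (median 124). Salivary gland markers (4 of 4) summed to 0.611 to 188 CPM over 3% and 0 to 130 CPM under 3%, and midgut markers (3 of 3) to 0 to 1478 CPM over 3%, highest in delta A, and 0 to 1.09 CPM under 3%. Trachea markers (3 of 3) summed to 813 to 1587 CPM over 3% and 597 to 1841 CPM under 3%, adult muscle precursor markers (3 of 3) to 59.96 to 127 CPM and 61.3 to 182 CPM, and germ line markers (3 of 3) to at most 5.54 CPM and 1.81 CPM. Their part in the class difference was not tested, and in bulk discs fewer cells of a type and less RNA per cell cannot be told apart.

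**Figure D2:**
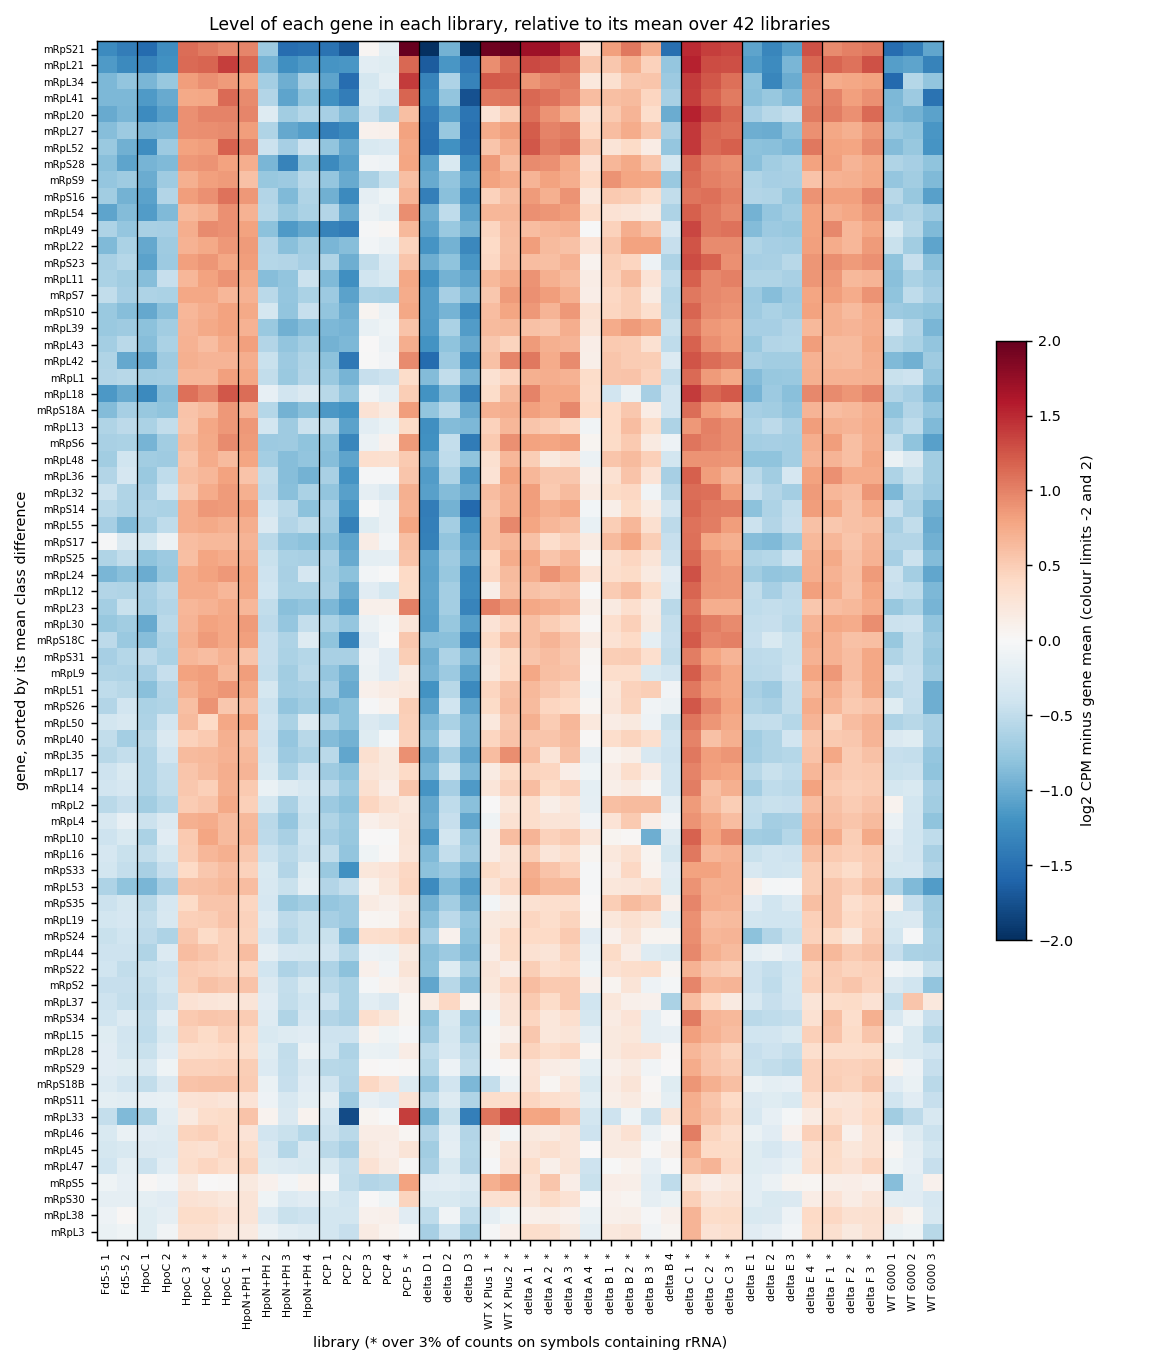
Rows are the 73 genes, sorted by the mean of their class differences on both sequencers, and columns the 42 libraries by group, with a star on libraries over 3%. Colour is log2 CPM minus the gene's mean over all libraries, so red columns are libraries in which most of the 73 genes are high, and these are the starred ones in each group that holds both classes.

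Genes of the large subunit stalk showed the division within groups. The stalk gene mRpL12 (3L, 8956791 to 8957584, plus strand; dm6) had 92.7 CPM in HpoN+PH 1, over 3%, against 41.1, 35.1 and 34.9 CPM in HpoN+PH 2 to 4. In delta E it had 96.2 CPM in library 4, over 3%, against 38.6, 34.4 and 37.7 CPM in libraries 1 to 3. In both groups the library over 3% stood clear of the others. Over all 42 libraries mRpL12 ran from 53.8 to 121 CPM over 3% and from 22.8 to 46.4 CPM under 3%, with class differences of 1.21 ± 0.13 (SE) on the X Plus and 1.04 ± 0.15 on the 6000. The stalk base gene mRpL11 ran from 14.5 to 29.9 CPM over 3% and from 5.60 to 10.6 CPM under 3%. The stalk anchor gene mRpL10 overlapped between classes, at 8.35 to 37.2 CPM over 3% and 7.37 to 16.4 CPM under 3%, with delta B 3 at 8.35 CPM. The gene of the membrane-side protein mRpL45, which in other organisms holds the ribosome at the inner membrane, differed less, at 67.5 to 112 CPM over 3% and 42.2 to 78.3 CPM under 3%, with a class difference of 0.60 on the X Plus and 0.24 on the 6000 (adjusted p = 0.0906, edgeR's quasi-likelihood test).

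The genes with the smallest p for the class term were mRpS9 and mRpS7 on the X Plus and mRpS9 and mRpL39 on the 6000. mRpS7 (2L, 10386662 to 10387652, plus strand), on the mRNA exit side of the small subunit, had 77.4, 77.8 and 72.1 CPM in HpoC 3 to 5, over 3%, against 29.5 and 29.4 CPM in HpoC 1 and 2. Its class difference on the X Plus was 1.40 ± 0.09 (SE; adjusted p = 5.12e-10, edgeR's quasi-likelihood test). mRpS9 (3R, 7889277 to 7902667, minus strand), whose bacterial homologue reaches the decoding site, had 49.6, 46.0 and 45.7 CPM in delta B 1 to 3, over 3%, against 15.9 CPM in delta B 4. Its class difference was 1.44 ± 0.10 on the X Plus and 1.35 ± 0.10 on the 6000 (adjusted p = 1.47e-09 and 9.39e-09, edgeR's quasi-likelihood test). It shares 25.1% of its exonic bases with ArgRS-m on the other strand, which ran from 13.7 to 27.7 CPM over all libraries. The large subunit gene mRpL39 (3L, 14997981 to 14999666, minus strand) had 110 CPM in delta E 4, over 3%, against 44.5, 44.4 and 46.8 CPM in delta E 1 to 3, a class difference on the 6000 of 1.22 ± 0.11 (SE; adjusted p = 1.11e-07, edgeR's quasi-likelihood test).

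The extremes of the class difference were named after their values were seen. It was highest in mRpS21, a homologue of the bacterial small subunit protein S21, at 2.43 on the X Plus and 2.36 on the 6000. mRpS21 had 22.6 CPM in delta E 4, over 3%, against 4.49, 3.78 and 4.43 CPM in delta E 1 to 3. It shares 48% of its exonic bases with CG8870 on the other strand, which stayed at or under 0.574 CPM. It was lowest on the X Plus in mRpL3, a protein near the peptidyl transferase centre, at 0.32, and on the 6000 in mRpL33, a homologue of bacterial L33, at −0.14. mRpL33 is the 1 gene of the 73 with a class difference below 0 on either sequencer, and it was 1.03 on the X Plus.

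Genes with and without a bacterial number passed in similar shares. On the 6000 class test, 27 of 31 mitochondria-specific genes and 39 of 42 genes with a bacterial number passed, with median log2 differences of 0.83 and 0.93. mRpL41, mitochondria-specific, had 31.7 CPM in PCP 5, over 3%, against 6.12, 5.43, 11.5 and 10.8 CPM in PCP 1 to 4. mRpL55, mitochondria-specific, had 20.2 CPM in PCP 5, over 3%, against 7.07, 4.54, 9.87 and 10.7 CPM in PCP 1 to 4. In both, PCP 5 was the highest and PCP 3 and 4 stood above PCP 1 and 2. mRpS29, the GTP-binding protein known as DAP3 in mammals, ran from 43.7 to 84.1 CPM over 3% and from 33.7 to 53.0 CPM under 3%. mRpS30, which sits in the large subunit in mammals, ran from 84.5 to 133 CPM over 3% and from 72.5 to 96.8 CPM under 3%. The S18 paralogues differed in size of shift: on the X Plus the class difference was 1.38 for mRpS18A, 1.31 for mRpS18C and 0.60 for mRpS18B.

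Genes with shorter transcripts showed larger class differences. Over the 73 genes the Spearman rho of class difference with transcript length was −0.51 on the X Plus and −0.36 on the 6000, and over all genes with a length it was −0.44 (n = 10741) and −0.43 (n = 10307). The 37 members at or under 783 bases had a median log2 difference of 1.31 on the X Plus, against 0.90 for the 36 longer ones, and the values on the 6000 were 1.04 and 0.67. With a trend of level on length removed from each library, the median class difference of the 73 genes was 0.93 on the X Plus and 0.64 on the 6000. The relation with length among the 73 remained after that removal, with a rho of −0.59 on the X Plus and −0.49 on the 6000. The medians of the shorter and longer members were then 1.12 and 0.56 on the X Plus, and 0.84 and 0.31 on the 6000. mRpL21, at 1696 bases, stood apart from the trend with 2.22 on the X Plus and 1.76 on the 6000.

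**Figure D3:**
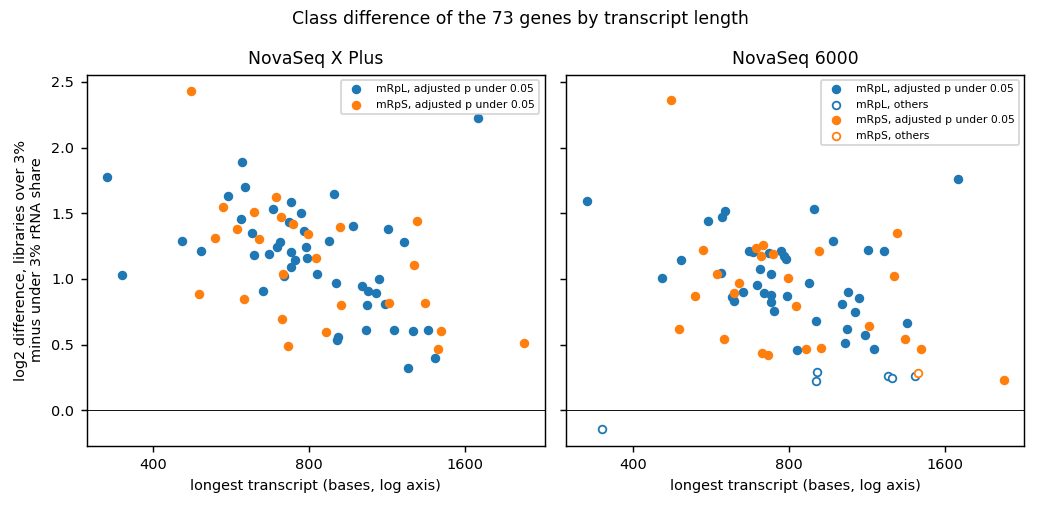
Each point is 1 of the 73 genes, with its longest transcript in bases on a log axis against its log2 class difference (over 3% minus under 3%) on the X Plus, left, and the 6000, right, filled where the adjusted p is under 0.05. The cloud slopes down to the right on both sequencers, and mRpL21 is the point above it at 1696 bases.

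For the mutants of the 6000, the question was whether the genes differ from WT where single conserved stretches are deleted. WT 6000 lies wholly under 3%, whereas delta A, delta C and delta F lie wholly over it, so genotype and class cannot be told apart there. In delta A 62 of 73 genes rose (all genes called 58.4%, higher 30.4%), with a median log2 difference of 1.02 against 0.05 over all genes. In delta C 71 rose (called 65.8%, higher 33.8%), with a median of 1.51 against 0.03. In delta F 69 rose (called 56.7%, higher 28.2%), with a median of 1.20 against −0.03. In delta B, which has 3 of 4 libraries over 3%, 35 rose (called 32.2%, higher 19.4%), with a median of 0.74 against 0.03. The count in delta B was 10, 1 and 1 without WT 6000 1, 2 and 3, and 7, 3, 2 and 54 without delta B 1, 2, 3 and 4. It was 3 in a fit of all 42 libraries and 0 in a fit of the 2 groups alone. In delta E, with 1 of 4 libraries over 3%, 1 gene rose (called 5.13%, higher 2.88%), and the median was 0.42 against 0.04. None of the 73 fell in these 5 comparisons with group alone in the model, each by edgeR's quasi-likelihood test. With the length trend removed from each library, delta A had 18 higher and 4 lower. Shares of all genes called are not given for this setting, for counts with a library left out or for the other fits of delta B. These counts are therefore not set against other genes. Larval muscle markers summed to 264 to 459 CPM in delta A, 47.9 to 315 CPM in delta C and 38.6 to 61.7 CPM in delta F, against 11.4 to 24.1 CPM in WT 6000. Fat body markers summed to 565 to 11075 CPM in delta A, against 11.7 to 22.5 CPM in WT 6000. They summed to 2.30 to 4.49 CPM in delta C and 1.59 to 2.79 CPM in delta F. In delta A salivary gland markers summed to 65.3 to 188 CPM, against 0 to 7.78 CPM in WT 6000. Midgut markers summed to 0.292 to 1478 CPM, against at most 0.412 CPM. Wing disc markers were lower in delta A, at 795 to 1346 CPM against 2049 to 2623 CPM. The part of these markers in the differences was not tested.

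With the class added as a term, estimated from delta B and delta E, these counts became 1 in delta A, 0 in delta B, 12 in delta C, 1 in delta E and 0 in delta F, with medians of 0.11, 0.02, 0.53, 0.09 and 0.20. The term assumes the same class difference in every group and rests on delta B 4 and delta E 4, each alone in its class within its group. All libraries of delta B and delta E were nearer another label. Delta C, at 5.11 to 8.04% rRNA, lies under the 10.8 to 13.4% of the libraries over 3% that set it. Delta A, at 13.9 to 17.2%, lies above that range. Genotype and class thus stay mixed in delta A, delta C and delta F. All genes called under that model came to 4.22%, 0.106%, 13.0%, 9.36% and 0.281% of those tested, and those higher in delta A, delta C and delta E to 2.36%, 5.72% and 4.71%. At an unadjusted p under 0.05 the counts of the 73 were 6 in delta A, 2 in delta B, 51 in delta C, 6 in delta E and 4 in delta F, and DESeq2 was not run with the term. No share of all genes is given at that unadjusted threshold, so these counts are not set against other genes. The 12 genes of delta C were mRpL20, mRpL23, mRpL30, mRpL33, mRpL42, mRpL44, mRpL50, mRpL53, mRpS2, mRpS6, mRpS10 and mRpS18C, and mRpL33 had the largest difference at 1.20. Delta C holds the highest library of the series, delta C 1, at 0.449%, with 0.377 and 0.369% in delta C 2 and 3, against 0.189, 0.191 and 0.158% in WT 6000. Without the 8 libraries named above, 67 genes rose in delta A (36.3% of all genes), 61 in delta B (32.9%), 71 in delta C (37.2%) and 71 in delta F (33.4%). In that fit delta B too lies wholly over 3% and WT 6000 wholly under it, so genotype and class cannot be told apart in these 4.

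**Figure D4:**
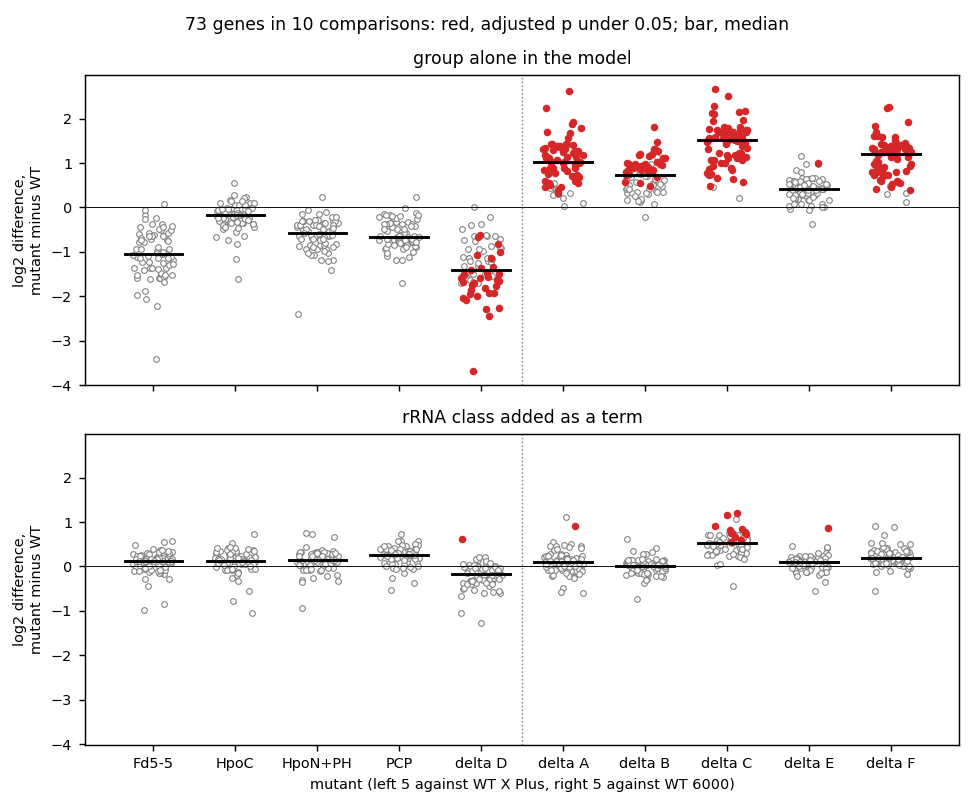
Each point is 1 of the 73 genes in 1 of 10 comparisons, with the log2 difference of mutant minus WT on the y axis, red where the adjusted p is under 0.05, and a bar at the median. In the upper panel, with group alone in the model, the medians run from −1.41 in delta D to 1.51 in delta C, and in the lower panel, with the rRNA class as a term, from −0.17 to 0.53.

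mRpL53, a mitochondria-specific gene of the large subunit, had the smallest p of the 73 in all 5 comparisons of the 6000. It stood at 62.8, 58.7, 58.4 and 36.6 CPM in delta A, 43.6, 44.1, 46.0 and 31.4 CPM in delta B, and 69.4, 60.8 and 61.7 CPM in delta C. It stood at 39.9, 36.4, 36.7 and 52.6 CPM in delta E and at 54.9, 51.6 and 56.7 CPM in delta F, against 24.2, 20.2 and 17.1 CPM in WT 6000. Every mutant library was above every WT 6000 library, those under 3% (delta B 4 and delta E 1 to 3) included. The log2 differences were 1.36 ± 0.18 in delta A, 0.98 ± 0.18 in delta B, 1.62 ± 0.19 in delta C, 0.999 ± 0.18 in delta E and 1.34 ± 0.19 in delta F (SE). The adjusted p-values were 0.000178, 0.00576, 8.27e-05, 0.00414 and 0.000770 by edgeR's quasi-likelihood test with Benjamini-Hochberg adjustment. The 5 comparisons share the WT 6000 libraries.

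The class term moved mRpL53 less than most of the 73. With it, the log2 difference was 0.91 in delta A (adjusted p = 0.0196), 1.16 in delta C (adjusted p = 0.00354) and 0.87 in delta E (adjusted p = 0.00133, edgeR's quasi-likelihood test). It was 0.63 in delta B and 0.89 in delta F, which did not pass (adjusted p = 0.199 and 0.0991, same test). Among libraries under 3% alone, delta E 1 to 3 stood 0.86 ± 0.13 (SE) above WT 6000 (adjusted p = 0.0104, same test). On the X Plus it had 24.3 and 21.3 CPM in Fd5-5 and 15.5, 20.2 and 17.3 CPM in delta D, all under 3%, against 44.0 and 49.4 CPM in WT X Plus, which is over 3%. Within the class over 3%, HpoC 3 to 5 had 55.7, 56.4 and 58.4 CPM, a difference from WT X Plus of 0.32 ± 0.08 (SE; adjusted p = 0.00985, edgeR's quasi-likelihood test). The lone library HpoN+PH 1 stood 0.33 ± 0.10 above WT X Plus (SE; adjusted p = 0.0363, same test), and PCP 5 differed by 0.12 ± 0.10 (SE), which did not pass. The gene lies at 2R, 13954195 to 13955664, on the plus strand (dm6), and all of its exonic bases are shared with CG33155 on the same strand, so counts of the pair depend on how reads were assigned. CG33155 ran from 4.35 to 10.499 CPM over all libraries, with log2 differences of 0.07 in delta E (adjusted p = 0.857), −0.39 in delta A (adjusted p = 0.0486) and −0.70 in delta F (adjusted p = 0.00436, edgeR's quasi-likelihood test).

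The other genes named by smallest p on the 6000 were mRpL23, mRpS9 and mRpL44. mRpL23, whose bacterial homologue lies at the exit of the tunnel, stood at 32.0, 30.9, 29.6 and 20.2 CPM in delta A and 28.8, 29.5 and 31.3 CPM in delta F, against 11.03, 12.0 and 9.81 CPM in WT 6000. No library of delta A or delta F overlapped WT 6000, with log2 differences of 1.32 ± 0.25 and 1.38 ± 0.26 (SE; adjusted p = 0.00110 and 0.00267, edgeR's quasi-likelihood test). mRpS9 had 49.6, 46.0, 45.7 and 15.9 CPM in delta B, against 15.6, 16.5 and 14.4 CPM in WT 6000. Delta B 4, the library under 3%, lay inside the WT range, and the difference over all 4 was 1.31 ± 0.32 (SE; adjusted p = 0.0145, edgeR's quasi-likelihood test). mRpL44, which has an RNase III fold, had 68.3, 57.7 and 54.9 CPM in delta C, against 25.5, 22.9 and 22.5 CPM in WT 6000, without overlap. Its difference was 1.33 ± 0.21 (SE; adjusted p = 0.000178, edgeR's quasi-likelihood test), and 9.27% of its exonic bases overlap POLDIP2 on the other strand. POLDIP2 was itself higher in delta C, by 0.85 ± 0.19 (SE; adjusted p = 0.000976, same test), with class differences of 0.81 on the X Plus and 0.59 on the 6000. Among libraries under 3% mRpL44 was the second gene called in delta E, with 31.3, 32.4 and 30.2 CPM in delta E 1 to 3. Its difference there was 0.39 ± 0.09 (SE; adjusted p = 0.0329, same test).

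On the X Plus, WT lies wholly over 3%, and Fd5-5 and delta D wholly under it, so genotype and class cannot be told apart there. In delta D 34 of 73 genes fell (all genes called 26.5%, lower 15.3%) and none rose, with a median log2 difference of −1.41 against −0.05 over all genes (edgeR's quasi-likelihood test). That count depended on single libraries: leaving out WT X Plus 1, WT X Plus 2, delta D 1 or delta D 3 gave 0, and leaving out delta D 2 gave 7. No share of all genes is given for these fits. Larval muscle markers summed to 14.4 to 47.7 CPM in delta D and 32.6 to 82.8 CPM in Fd5-5, against 518 to 970 CPM in WT X Plus. Wing disc markers summed to 2381 to 2850 CPM in delta D and 2050 to 2183 CPM in Fd5-5, against 1190 to 1260 CPM in WT X Plus. Fat body markers summed to 650 to 7679 CPM in Fd5-5 and 13.9 to 100 CPM in delta D, against 39.7 to 50.2 CPM in WT X Plus. Salivary gland markers summed to at most 0.389 CPM in Fd5-5 and 0.162 CPM in delta D, against 29.2 to 78.1 CPM in WT X Plus. The part of these markers in the differences was not tested. With the class as a term no gene of the 73 was called lower and mRpL37 was called higher, with a difference of 0.63 ± 0.16 (SE; adjusted p = 0.0187, edgeR's quasi-likelihood test; all genes called 7.69%, higher 5.22%). mRpL37 stood at 45.8, 54.5 and 42.9 CPM in delta D, against 44.4 and 49.4 CPM in WT X Plus, which overlap. The other libraries of the X Plus under 3% ran from 26.4 to 35.2 CPM.

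In Fd5-5 72 of 73 genes were lower than in WT X Plus, with a median of −1.04 against 0.01 over all genes, but 0 passed (called 4.47%, edgeR's quasi-likelihood test). At an unadjusted p under 0.05 the count was 25, and DESeq2 called 2. In fits of Fd5-5 and WT X Plus alone, 65 of 73 were called lower (29.8% of all genes), and without the 8 libraries 67 were (32.2%). The spread shared by the 21 libraries includes the groups that hold both classes, with a biological coefficient of variation of 49.2%. In HpoC, HpoN+PH and PCP also 0 of 73 passed (called 3.82%, 4.84% and 3.61%), with medians of −0.18, −0.57 and −0.67 against 0.03, −0.02 and 0.01 over all genes. At an unadjusted p under 0.05 the counts were 2 in HpoC, 3 in HpoN+PH and 4 in PCP, and DESeq2 called 0, 0 and 1. With the class as a term 0 of 73 passed in Fd5-5, HpoC, HpoN+PH and PCP (all genes called 3.64%, 12.3%, 6.53% and 3.69%; edgeR's quasi-likelihood test), with medians of 0.13, 0.13, 0.14 and 0.26. At an unadjusted p under 0.05 these counts were 0, 5, 2 and 4, and DESeq2 was not run with the term. The counts at an unadjusted p and by DESeq2 have no share of all genes beside them. They are not set against other genes.

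mRpL33, mRpS5, mRpS21 and mRpS17 had the smallest p in these comparisons. mRpL33 had 4.72, 6.64 and 3.50 CPM in delta D and 6.53 and 4.91 CPM in Fd5-5, against 19.0 and 22.8 CPM in WT X Plus, and the groups did not overlap. Its log2 differences were −2.08 ± 0.57 in delta D (SE; adjusted p = 0.0214) and −1.87 ± 0.65 in Fd5-5 (adjusted p = 0.104, edgeR's quasi-likelihood test). mRpS17, a homologue of the bacterial protein S17, had 8.85, 13.1 and 10.6 CPM in delta D, against 34.1 and 35.7 CPM in WT X Plus. It fell by 1.70 ± 0.47 on the log2 scale (SE; adjusted p = 0.0232, edgeR's quasi-likelihood test). mRpS21 had 18.4, 5.66, 3.27 and 3.34 CPM in HpoN+PH, against 35.9 and 43.8 CPM in WT X Plus, with a difference of −2.39 ± 0.92 (SE; adjusted p = 0.137, same test).

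mRpS5, on the mRNA entry side of the small subunit, was higher in WT X Plus than in nearly all mutant libraries of the X Plus, in either class. It had 74.0, 70.6, 82.7, 73.2 and 74.4 CPM in HpoC and 72.3, 52.1, 48.8, 50.01 and 127.6 CPM in PCP, against 119.2 and 130.3 CPM in WT X Plus. All HpoC libraries were lower than WT X Plus, over 3% or not, whereas PCP 5 lay between both WT libraries. The log2 differences were −0.74 ± 0.26 in HpoC (SE; adjusted p = 0.158) and −0.84 ± 0.26 in PCP (adjusted p = 0.0963, edgeR's quasi-likelihood test). PCP 5 also stood near WT X Plus in mRpL33, at 23.5 CPM, and in mRpS21, at 37.8 CPM. Its mean Spearman rho was 0.989 with WT X Plus and 0.919 with the other PCP libraries, which are all under 3%.

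**Figure D5:**
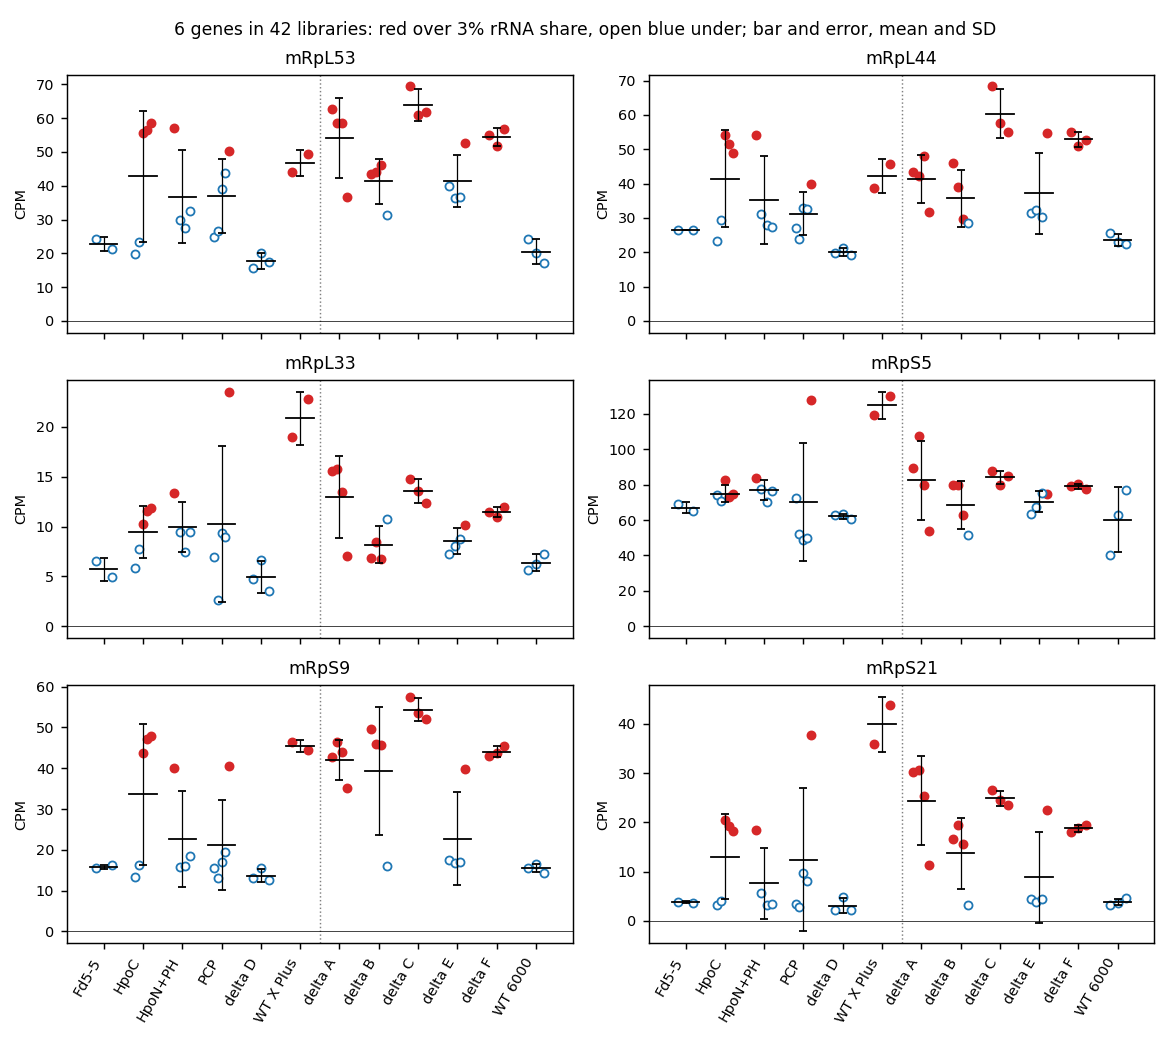
CPM of 6 genes in the 12 groups, each mutant left of the WT of its sequencer across the dotted line, with 1 point per library, red over 3% and open blue under, and bars at the mean with SD. mRpL53 is above WT 6000 in every mutant library of the 6000, and for mRpL33, mRpS5 and mRpS21 the WT X Plus libraries and the red PCP library stand above the other X Plus libraries.

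Comparing only libraries over 3% on the X Plus gave a positive median for HpoC, where all 5 libraries gave −0.18. The rRNA share still differed within this class, at 17.4 and 17.1% in WT X Plus and 10.7, 11.7 and 8.88% in HpoC 3 to 5. It was 11.7% in HpoN+PH 1 and 16.1% in PCP 5, and the part of this share in the differences was not tested. With HpoC 3 to 5 against both WT X Plus libraries, 32 of 73 genes were higher (24.6% of all genes) and 4 lower (21.8%), with a median of 0.24 against 0.00 over all genes (edgeR's quasi-likelihood test, residual degrees of freedom 3). The 4 lower were mRpS21 at −1.005 ± 0.11 (adjusted p = 0.000218), mRpL33 at −0.86 ± 0.12 (adjusted p = 0.000780), mRpS5 at −0.66 ± 0.08 (adjusted p = 0.000403) and mRpL34 at −0.32 ± 0.10 (SE; adjusted p = 0.0249, same test). Of the higher ones, mRpS18B had 22.1, 22.5 and 22.5 CPM in HpoC 3 to 5, against 10.8 and 13.8 CPM in WT X Plus, and mRpS29 had 68.9, 69.1 and 69.8 CPM, against 49.6 and 51.1 CPM. With HpoN+PH 1 alone over 3%, 21 genes were higher (20.3%) and the same 4 were lower (15.2%), with that lone library assumed to vary like the others. Its mean Spearman rho was 0.955 with HpoC and 0.926 with the other HpoN+PH libraries, which are all under 3%. Nothing about the genotype is read from this library. All genes called in these 2 comparisons came to 46.4% and 35.5%. Without the 8 libraries 19 genes were higher (18.2%) and 3 lower (21.4%) in HpoC, and 71 lower (34.5%) in HpoN+PH, whose remaining libraries are all under 3%. In PCP, whose remaining libraries are also all under 3%, 1 gene was higher (26.3%) and 48 lower (26.8%). In delta D 70 were lower (35.4%). PCP 5 against WT X Plus gave 0 (called 2.20%; 1 at an unadjusted p under 0.05) with a median of 0.05. Larval muscle markers summed to 30.8 to 90.1 CPM in HpoC and 37.9 to 80.2 CPM in HpoN+PH, against 518 to 970 CPM in WT X Plus, and their part in these differences was not tested.

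On the 6000, delta E 1 to 3 against WT 6000, all under 3%, gave 2 genes higher, mRpL53 and mRpL44 (14.4% of all genes called, 6.53% higher), and a median of 0.02 over the 73. Without the 8 libraries, delta E had 1 gene higher (7.72%) and 1 lower (8.11%). Delta B 4, a lone library whose spread is supplied by the other groups, gave 0 against WT 6000 (0% of all genes; 6 of the 73 at an unadjusted p under 0.05) with a median of 0.20.

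WT 6000 against WT X Plus, the same genotype on both instruments, gave 28 of 73 genes lower and none higher (all genes called 24.7%, lower 13.7%; edgeR's quasi-likelihood test in a fit of all 42 libraries). The median was −1.09 against −0.04 over all genes. mRpS5 had 40.5, 62.9 and 77.2 CPM in WT 6000, against 119.2 and 130.3 CPM in WT X Plus, a difference of −1.05 ± 0.28 (SE; adjusted p = 0.00989, same test). mRpL33 had 5.60, 6.27 and 7.27 CPM in WT 6000, against 19.0 and 22.8 CPM in WT X Plus, a difference of −1.71 ± 0.45 (SE; adjusted p = 0.0103, same test). Leaving out any 1 of the 5 WT libraries left at most 9 genes called, with 4, 9 and 4 without WT 6000 1, 2 and 3, and 1 and 0 without WT X Plus 1 and 2. Larval muscle markers summed to 11.4 to 24.1 CPM in WT 6000, against 518 to 970 CPM in WT X Plus, and wing disc markers to 2049 to 2623 CPM, against 1190 to 1260 CPM. Their part in the difference was not tested, and sequencer, rRNA class and any other difference between the WT sets cannot be told apart.

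Other genes of mitochondrial translation, from a list of 41 that carry no mRp symbol, split in direction where the 73 did not. In the class test on the X Plus 24 were higher and 8 lower in libraries over 3%, with a median of 0.45, and on the 6000 16 were higher and 10 lower, with a median of 0.38. All genes called came to 66.9% (34.0% higher) on the X Plus and 56.4% (28.9% higher) on the 6000. The elongation factor gene mEFTs was higher over 3%, by 1.51 on the X Plus and 1.40 on the 6000, and the mitochondrial RNA polymerase gene mtRNApol was lower, at −1.07 and −1.36 (adjusted p = 7.01e-11, 1.33e-09, 3.14e-10 and 9.19e-08 in that order, edgeR's quasi-likelihood test). Of the mutants, delta C had 20 of 41 higher and 8 lower, which is near the share of all genes called there. The aminoacyl-tRNA synthetase genes AspRS-m, at −1.40, and PheRS-m, at 1.07, had the smallest p. Delta A had 14 higher and 8 lower, delta B 6 and 5, delta E 1 and 0, delta F 15 and 6, and delta D 2 and 6. All genes called came to 65.8% in delta C, 58.4% in delta A, 32.2% in delta B, 5.13% in delta E, 56.7% in delta F and 26.5% in delta D. With group alone in the model the list had 0 called in Fd5-5, HpoC, HpoN+PH and PCP (all genes 4.47%, 3.82%, 4.84% and 3.61%). With the class as a term it had 3 higher and 2 lower in delta C (all genes called 13.0%), 1 and 0 in delta A (4.22%) and 2 and 0 in delta E (9.36%). It had 1 and 0 in delta D (7.69%), 1 and 2 in HpoC (12.3%) and 0 and 1 in HpoN+PH (6.53%). It had 0 in delta B, delta F, Fd5-5 and PCP (0.106%, 0.281%, 3.64% and 3.69%). Within a class the list had 13 higher and 2 lower in HpoC (all genes called 46.4%, higher 24.6%) and 3 and 1 in delta E (14.4%, higher 6.53%). HpoN+PH, PCP and delta B held 1 library each there, and the list had medians of 0.07, 0.03 and 0.07. Genotype and class cannot be told apart in delta A, delta C, delta D, delta F and Fd5-5.

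tko and bonsai, small subunit genes whose symbols fall outside the rule, ran with the 73 in part. tko, the homologue of bacterial S12, had 25.2, 34.3 and 25.9 CPM in delta D, against 68.8 and 85.6 CPM in WT X Plus, and 96.2, 85.8 and 83.6 CPM in delta C, against 34.6, 37.9 and 34.3 CPM in WT 6000. Neither pair of groups overlapped. bonsai, a homologue of bacterial S15, had 28.2, 28.4, 27.8 and 27.8 CPM in delta E, with no step at delta E 4, against 13.9, 27.0 and 23.0 CPM in WT 6000.

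Nuclear respiratory chain genes and cytoplasmic ribosomal protein genes moved in the direction of the 73. Of the respiratory chain genes, 60 of 69 tested were higher and 2 lower over 3% on the X Plus (median 1.15), and 56 of 67 were higher and 1 lower on the 6000 (median 0.96). Of the cytoplasmic ribosomal protein genes, 87 of 87 were higher on the X Plus (median 2.49) and 84 of 87 on the 6000 (median 2.41). Of the 15 mitochondrial genome transcripts tested, 13 of which code for protein, 13 were higher on the X Plus (median 1.92) and 15 on the 6000 (median 3.46). The mitochondrial rRNA symbols are among those that define the classes. Of all genes tested, 34.0% were higher on the X Plus and 28.9% on the 6000.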

How the data were processed

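The authors deposited 1 table of estimated counts per gene for 42 libraries, with 75.4% of values whole numbers (tolerance 1e-09). Per the submitters' processing notes, FastQC 0.10, Trimmomatic 0.33, Salmon 1.80, edgeR and the dm6 build were used, with no role given. Per the labels' protocols, libraries came from 10 ng of total RNA with 12 to 15 PCR cycles and were sequenced as paired reads of 150 bases. Transcript lengths and positions came from the Ensembl annotation of the same build, in which 17130 of 17208 genes matched. Libraries held 19538208 to 48392354 counts.

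Estimated counts were rounded and scaled by TMM, filtered with filterByExpr and tested by quasi-likelihood in edgeR 4.0.16 under R 4.3.3, in 1 fit of 21 libraries per sequencer (10775 genes on the X Plus and 10338 on the 6000). WT 6000 was set against WT X Plus in 1 fit of all 42 (11294 genes). P-values were adjusted by Benjamini-Hochberg over all genes, with a threshold of 0.05. Counts at an unadjusted p, by DESeq2 or with 1 library left out have no share of all genes beside them. Such counts are not set against other genes. The term for libraries over 3% of rRNA counts was estimated from groups that hold both classes, and it assumes the same class difference in the other groups. DESeq2 1.42.0, other scalings, filters, sample sets, a class term, a length trend (loess span 0.3), a replicate block and leaving out each library were the alternatives. The scripts were tested on simulated data. No 2 libraries of a group were alike within sampling noise (58 pairs, lowest chi-square per degree of freedom 11.1).

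The genes named with a test were, per comparison, the 2 of smallest p in each direction among those past the threshold with a mean of at least 50 counts in a group, or the 1 of smallest p where none passed. Genes named with levels were the stalk genes, mRpL41, mRpL44, mRpL45, mRpL55, mRpS5, mRpS18A to mRpS18C, mRpS29, mRpS30 and the extremes per kb, and of other lists up to 2 genes of smallest p, with tko and bonsai. The 73 genes and all lists were chosen with earlier results of these data known. mRpL21, mRpL34, mRpL37, the 12 genes of delta C under the class term, the examples within a class and the genes named for the class term and for the WT sets were named after their values were seen.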

Additional observations from a re-analysis of the deposited data

Results flagged for a closer look

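In groups of 4 or 5 libraries, the gap between the most extreme library and its nearest neighbour was divided by the range of the group (Dixon's ratio). Of 84 sets of values tested, 25 passed the 95% critical value, and chance flags about 1 in 20 of independent sets. These sets are not independent, since the summed share and the single genes come from the same libraries. The count of flags is therefore not set against that rate.

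In delta E, library 4 was the highest, with a ratio of 0.936 for the summed share of the 73 genes, 0.931 for mRpL12, 0.942 for mRpL10, 0.986 for mRpL11, 0.846 for mRpL45 and 0.908 for mRpL44. It was also 0.964 for mRpL41, 0.904 for mRpL55, 0.933 for mRpS29, 0.949 for mRpS18A, 0.922 for mRpS18B and 0.914 for mRpS18C. In HpoN+PH, library 1 was the highest, with 0.834 for the summed share, 0.893 for mRpL12, 0.874 for mRpL10, 0.830 for mRpL11, 0.864 for mRpL44 and 0.871 for mRpL41. It was 0.851 for mRpL55, 0.846 for mRpS29, 0.862 for mRpS18A and 0.837 for mRpS18C. Both libraries are the only ones of their group over 3% of rRNA counts.

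In PCP, library 5, also the only one of its group over 3%, was the highest for mRpL41 with a ratio of 0.770. In delta A, library 4 was the lowest, with 0.838 for the summed share and 0.896 for mRpL12. All 4 delta A libraries are over 3%.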

How the results depend on the processing

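Counts in this section are of the 73 genes only. Where the Results print no share of all genes for a setting, its counts are not set against other genes. For Fd5-5 the count of the 73 genes called was 2 in the fit of all 42 libraries, 2 with DESeq2, 65 with the 2 groups alone and 67 without the 8 libraries. For HpoC it was 36 within the class and 22 without the 8, for HpoN+PH 25 and 71, and for PCP 1 in the fit of all 42, 1 with DESeq2 and 49 without the 8. For delta D it was 61 in the fit of all 42, 52 with DESeq2, 1 (higher) with the class term, 5 with the length trend removed, 20 without a filter, 68 with the 2 groups alone and 70 without the 8. For delta A it was 1 with the class term and 22 with the length trend removed, of which 18 were higher and 4 lower. For delta B it was 3 in the fit of all 42, 0 with the class term, 19 with the length trend removed, 23 without a filter, 0 with the 2 groups alone, 0 within the class and 61 without the 8. For delta C it was 12 and for delta F 0 with the class term. For delta E it was 0 in the fit of all 42, 2 with DESeq2, 0 with the 2 groups alone, 2 within the class and 2 without the 8 (1 higher, 1 lower). For the WT sets it was 7 with the length trend removed, 17 without a filter and 60 with the 2 groups alone. Leaving out 1 library at a time gave 0 to 0 for Fd5-5 and HpoC, 0 to 4 for HpoN+PH, 0 to 10 for PCP, 0 to 7 for delta D, 49 to 66 for delta A, 1 to 54 for delta B, 70 to 71 for delta C, 1 to 1 for delta E, 58 to 68 for delta F, 0 to 9 for the WT sets, 70 to 73 for the class on the X Plus and 40 to 66 on the 6000. The highest were without HpoN+PH 1, PCP 5 and delta B 4, and delta B fell to 10, 1 and 1 without WT 6000 1, 2 and 3 and to 7, 3 and 2 without delta B 1, 2 and 3. The log2 difference of mRpS5 in PCP was 0.050 within the class. Replicate numbers did not pair libraries (mean r of same-numbered deviations −0.03 over 88 pairs; of 21 group pairs with 3 or more, every r was over 0.1 in 1, delta A with delta B, which are not compared with each other), and with a replicate block the counts were 23 in delta B, 1 in PCP and 48 in delta D. Where these settings change a count, the cause was not tested beyond the fewer samples or genes they hold.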
